A study of Mus musculus with 8 samples.

Results

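The transcription factors described here are the Fos and Jun proteins and their closest partners in the AP-1 complex: Fosl1 (Fra-1), Fosl2 (Fra-2), Fos, Fosb, Jun, Junb, Jund, Atf3, Batf3 and Jdp2. They were read as every non-control probe of the array whose RefSeq accession belongs to one of these 10 genes, which gave 11 probes of 55681, for 10 of the 21154 genes named on the array. Each gene had 1 probe except Fosl2, which had 2. All 11 passed the filter on dim probes, as did 30819 probes of the whole array. Mouse peritoneal macrophages, obtained by lavage at 8 weeks of age and cultured overnight so that only adherent cells remained, were hybridised on 8 one-colour arrays in 4 groups of 2. The mice were male or female on a 129/C57Bl6 background.

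The Fra-1 knockout group came from Fra-1lox/lox MxCre-/+ mice, and the Fra-1 control group from wild-type Fra-1lox/lox mice. Both were labelled as thioglycollate elicited. The group labelled Fra-2 knockout came from Fra-2lox/lox LysMCre-/+ mice, and the Fra-2 control group from wild-type Fra-2lox/lox mice, with no elicitation in the labels of either. All mice thus carried a floxed allele, and the 2 lines differed in the gene floxed, the Cre driver and the labelled elicitation together. MxCre is driven by an interferon-inducible promoter and can delete in many cell types, whereas LysMCre is driven by the Lyz2 gene and acts in myeloid cells. Nothing in the labels ties an array to a separate animal, so the p-values measure the spread between these arrays, which may be technical.

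AP-1 is a dimer of basic leucine zipper proteins. A Jun protein can pair with itself, with a Fos protein or with an ATF partner, whereas Fos proteins bind DNA only in a pair with another family member. Fra-1 and Fra-2 lack the strong activation domain of Fos and Fosb, and in macrophages the family answers to growth factors, stress and inflammatory signals through MAP kinases.

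Values are normalized log2 signals, that is, the log2 processed intensity of a probe minus that of the array's 75th percentile, so that 1 unit is a doubling of intensity and negative values are dimmer than that percentile. They compare arrays for 1 probe and do not rank probes by abundance. A probe is called when its limma p-value, adjusted by Benjamini-Hochberg over all 30819 probes, is under 0.05. The members and the gene lists below were chosen with earlier results of these data known. Their shares beside those of all probes are descriptions and test nothing about the sets. The 8 macrophage markers checked (among them Adgre1, Csf1r and Cd68) were well above background on every array. Between 47.7% and 57.6% of spots were well above background per array, lowest on Fra-2 knockout array 1, and arrays correlated at 0.982 to 0.992 within a group and 0.911 to 0.923 between lines. The arrays lay on 2 slides: slide 2 held Fra-1 knockout 2, Fra-2 knockout 2 and Fra-2 control 2, and slide 1 the other 5, so that a value within slide 1 or 2 compares arrays of that slide alone, with no test. In these bulk samples fewer cells of a type and less RNA per cell cannot be told apart.

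Promoters are shown for 4 members whose signal differed most between the lines in each direction, Jun and Atf3 (brighter in the Fra-1 line) and Fosl2 and Junb (brighter in the Fra-2 line). Each is the RefSeq window of the GRCm38.p6 assembly from 250 bases before to 50 after the annotated start, written 5′ to 3′ on the gene's strand so that it covers the proximal promoter and the first transcribed bases. The windows are chr4:95052173-95052472 (minus strand) for Jun, chr1:191183284-191183583 (minus strand) for Atf3, chr5:32136222-32136521 (plus strand) for Fosl2 and chr8:84978699-84978998 (minus strand) for Junb. Capitals mark the motif matches described after them.
Jun: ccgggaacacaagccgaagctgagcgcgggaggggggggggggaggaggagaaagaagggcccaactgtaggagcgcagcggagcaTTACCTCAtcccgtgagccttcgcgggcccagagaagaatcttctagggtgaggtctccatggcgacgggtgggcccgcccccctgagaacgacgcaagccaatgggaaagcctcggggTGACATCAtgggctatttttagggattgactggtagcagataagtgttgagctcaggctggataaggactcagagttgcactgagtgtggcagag
Atf3: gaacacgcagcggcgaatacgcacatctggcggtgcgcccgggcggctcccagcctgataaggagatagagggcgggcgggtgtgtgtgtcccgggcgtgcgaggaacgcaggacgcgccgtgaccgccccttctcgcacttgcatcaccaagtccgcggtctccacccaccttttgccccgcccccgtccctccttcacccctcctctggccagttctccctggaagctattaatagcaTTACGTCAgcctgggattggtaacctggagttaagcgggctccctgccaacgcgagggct
Fosl2: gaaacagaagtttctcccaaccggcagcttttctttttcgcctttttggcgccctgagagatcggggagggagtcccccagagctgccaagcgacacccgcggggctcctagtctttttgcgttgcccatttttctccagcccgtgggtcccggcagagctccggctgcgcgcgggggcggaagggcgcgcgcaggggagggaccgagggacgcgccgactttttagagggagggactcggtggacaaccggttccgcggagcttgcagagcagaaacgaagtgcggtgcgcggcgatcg
Junb: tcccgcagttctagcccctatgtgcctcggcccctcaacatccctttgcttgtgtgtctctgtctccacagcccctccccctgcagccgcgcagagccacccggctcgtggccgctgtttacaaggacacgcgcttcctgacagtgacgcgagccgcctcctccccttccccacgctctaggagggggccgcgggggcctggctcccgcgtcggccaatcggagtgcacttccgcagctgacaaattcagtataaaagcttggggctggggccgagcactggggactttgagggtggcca

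Of the 10 members, 9 had a window in the RefSeq table. Both strands were searched for the AP-1 element TGAGTCA, which reads on the opposite strand as TGACTCA, for the cyclic AMP response element TGACGTCA, and for the CArG box that serum response factor binds. None of the 9 genes held any of these letters in its windows. Of all 32851 windows 5.20%, 1.79% and 1.63% held the AP-1 element, the TGACGTCA element and the CArG box in that order. Counted by gene, the shares were 5.95%, 2.03% and 1.81%. With shares this low, 0 of 9 genes does not set the family apart. Close variants were searched afterwards, so their choice followed the first result. The Jun window held TGACATCA at bases 206 to 213 and TTACCTCA at bases 87 to 94, counted from the 5′ end, 8-base elements that 3.62% and 0.889% of all windows hold. The Atf3 window held TTACGTCA at bases 241 to 248, an element found in 0.499% of windows. These matches are letters in a window, with no binding measured here.

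The first question was what deletion of Fra-1 did to its own transcript and to the rest of the family. Fosl1, which encodes Fra-1, read −4.78 and −4.18 in Fra-1 knockout arrays, against −2.73 and −1.97 in Fra-1 control arrays. In deposited intensity these were 14.7 and 20.2 units in Fra-1 knockout arrays and 61.7 and 120 units in Fra-1 control arrays. Both Fra-1 knockout arrays were dimmer than both controls, and only the knockouts were not well above background. Arrays labelled Fra-2 knockout read −1.40 and −2.85 and Fra-2 control arrays −2.99 and −2.52, so that Fosl1 was measurable in every group except the Fra-1 knockout. The mean was −4.48 ± 0.43 in Fra-1 knockout and −2.35 ± 0.54 in Fra-1 control arrays (SD, n = 2 each).

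**Figure D1:**
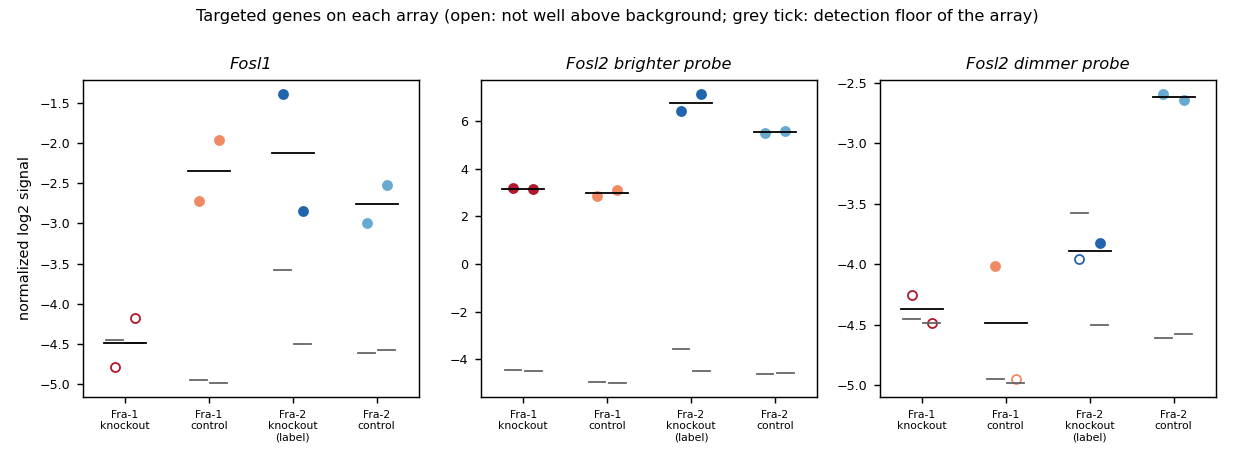
Normalized log2 signal of the Fosl1 probe and both Fosl2 probes on each array (points), with the group mean (bar), the detection floor of each array (grey tick) and open points where the spot was not well above background. Fosl1 was open on both Fra-1 knockout arrays, and the Fosl2 probes moved in opposite directions between arrays labelled Fra-2 knockout and Fra-2 control.

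The difference of Fosl1 was −2.13 on the log2 scale (SE 0.53, 95% interval −3.43 to −0.84), with an unadjusted p of 0.00691 and a limma adjusted p of 0.374, so it was not called among all probes. Because the knockout signal was not well above background, a bound was also taken from the detection floor, 3.91-fold lower than in controls. That bound is a point value without an interval, and several settings gave differences smaller than it. When each array was left out in turn, the log2 difference ran from −2.51 to −1.75, which includes values smaller than the bound. The difference was −2.44 within slide 1 and −2.07 with a slide term. With normexp background correction it was −0.75, and with a common floor −1.23. The labels do not say whether this probe lies within the floxed stretch. Fibroblast markers moved with it: 7 of 7 were on the array, with a summed signal, relative to the array's 75th percentile, of 40.6 to 63.4 in Fra-1 knockout arrays and 109 to 157 in Fra-1 control arrays. The 7 mesothelial markers summed to 4.83 to 7.26 in Fra-1 knockout and 10.3 to 15.1 in Fra-1 control arrays. Their part in the Fosl1 difference was not tested.

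The other Fos genes were not called in Fra-1 knockout macrophages either. Fosl2 by its brighter probe read 3.19 and 3.15 in Fra-1 knockout arrays and 2.86 and 3.13 in Fra-1 control arrays (log2 difference 0.17, 95% interval −0.42 to 0.77). The knockouts lay just above the controls with a gap smaller than the spread of the controls. The dimmer Fosl2 probe read −4.25 and −4.49 in Fra-1 knockout arrays and −4.01 and −4.95 in Fra-1 control arrays (0.11, 95% interval −0.62 to 0.85; limma adjusted p = 0.943). The groups overlapped, and the probe was well above background on 1 of these 4 arrays, a control. Fos, the prototype immediate early gene of the family, read 2.20 and 2.15 in Fra-1 knockout and 1.83 and 2.14 in Fra-1 control arrays, a difference of 0.19 (−0.25 to 0.64). Fosb, another immediate early gene, averaged −2.12 ± 0.01 in Fra-1 knockout and −2.15 ± 0.27 in Fra-1 control arrays. The knockout arrays fell between the controls.

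The Jun genes, whose products are the usual partners of the Fra proteins, were also not called. Jun read 6.11 and 6.17 in Fra-1 knockout arrays and 6.14 and 5.92 in Fra-1 control arrays (0.11, 95% interval −0.29 to 0.52). Junb, a weaker activator than Jun in many settings, differed by 0.01, and all 4 arrays of the line lay between −0.62 and −0.52. Jund, the Jun gene that is the least dependent on stimulation, read 5.17 and 5.35 in Fra-1 knockout and 5.01 and 4.99 in Fra-1 control arrays. The groups of Jund did not overlap, and the difference of 0.26 (−0.03 to 0.55) had an adjusted p of 0.627 by limma.

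Among the remaining partners, Batf3, a factor best known for its need in cross-presenting dendritic cells, read 2.67 and 2.50 in Fra-1 knockout and 1.90 and 2.42 in Fra-1 control arrays. The groups did not overlap, and the difference was 0.43 (−0.05 to 0.90; limma adjusted p = 0.622). Atf3, a stress-induced member that often represses, averaged 6.75 ± 0.07 in Fra-1 knockout and 6.95 ± 0.36 in Fra-1 control arrays (−0.20, −0.73 to 0.33). Jdp2, a Jun partner that represses AP-1 sites, averaged 1.44 ± 0.19 in Fra-1 knockout and 1.48 ± 0.01 in Fra-1 control arrays.

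In total 0 of 11 AP-1 probes were called in the Fra-1 comparison, where 0.0162% of all probes were called (5 probes), and 1 of 11, Fosl1, had an unadjusted p under 0.05, as did 8.61% of all probes. The Fra-1 knockout and control arrays did not overlap for 5 of 11 AP-1 probes, 45.5%, against 45.9% of all probes. The median absolute log2 difference was 0.17 over the AP-1 probes and 0.18 over all probes. The counts over the family thus lay near those of the whole array. For the 10 probes other than Fosl1, the 95% intervals reached −0.73 on the low side (Atf3) and 0.90 on the high side (Batf3).

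The second comparison asked the same of Fra-2. Fosl2, which encodes it, was read by probes that moved in opposite directions. The brighter probe read 6.43 and 7.14 in arrays labelled Fra-2 knockout, against 5.51 and 5.57 in Fra-2 control arrays. Both labelled knockouts were brighter than both controls. The difference was 1.24 (SE 0.24, 95% interval 0.64 to 1.83), 2.36-fold higher, with an unadjusted p of 0.00221 and a limma adjusted p of 0.219. On slide 1 alone the labelled knockout was higher by 0.91, on slide 2 alone by 1.56.

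The dimmer Fosl2 probe read −3.96 and −3.82 in arrays labelled Fra-2 knockout, against −2.59 and −2.64 in Fra-2 control arrays. Here both labelled knockouts were dimmer than both controls, and 1 of the 2 was not well above background. The probe passed the filter only through the Fra-2 control arrays. The difference was −1.27 (SE 0.30, −2.01 to −0.54; unadjusted p = 0.00542, limma adjusted p = 0.298), with −1.37 within slide 1 and −1.18 within slide 2. Raising all arrays to a common floor of −3.58 gave −0.96, with a limma adjusted p of 0.0253. It was the only setting run in which an AP-1 probe was called in this comparison. That floor lay above all readings of this probe except those of the Fra-2 control arrays. The other arrays were thus set to 1 value, and the p-value does not measure the spread of the labelled knockouts. Where either probe lies relative to the floxed stretch of Fosl2 is not given in the sources used here, so the signal of this gene does not settle whether the arrays labelled Fra-2 knockout lack Fra-2. Every direction drawn from this label carries that limit.

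The other Fos genes were not called in the labelled knockouts. Fos, whose probe was spotted 10 times per array with a coefficient of variation of 2.77% to 5.06% between spots, read 2.42 and 2.63 in arrays labelled Fra-2 knockout and 1.91 and 2.25 in Fra-2 control arrays. The groups did not overlap, and the difference was 0.45 (0.00 to 0.89; limma adjusted p = 0.57). Fosb read −3.09 and −3.06 in arrays labelled Fra-2 knockout and −3.81 and −3.14 in Fra-2 control arrays, a difference of 0.40 that was 0.72 within slide 1 and 0.08 within slide 2. Fosl1 differed by 0.64 (−0.66 to 1.94), with 1.60 within slide 1 and −0.32 within slide 2, so its direction was not the same on both slides.

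Jun read 4.15 and 3.78 in arrays labelled Fra-2 knockout and 3.45 and 3.40 in Fra-2 control arrays. Both labelled knockouts were brighter than both controls, by 0.55 on average (SE 0.17, 0.14 to 0.95), 1.46-fold, with an unadjusted p of 0.0167 and a limma adjusted p of 0.428. The difference was 0.71 within slide 1 and 0.38 within slide 2. Junb read 0.88 and 1.65 in arrays labelled Fra-2 knockout and 0.92 and 1.02 in Fra-2 control arrays. Its difference of 0.30 was 0.63 within slide 2 and −0.03 within slide 1. Jund differed by 0.16 (−0.13 to 0.46), without overlap between the groups.

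Atf3 read 4.10 and 3.89 in arrays labelled Fra-2 knockout and 3.61 and 3.97 in Fra-2 control arrays, which overlapped, with 0.49 within slide 1 and −0.07 within slide 2. Batf3 differed by −0.10 (−0.57 to 0.37) and Jdp2 by 0.11 (−0.47 to 0.69). Across the family 9 of 11 differences were positive, with a median of 0.30, beside −0.02 over all probes.

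Again 0 of 11 AP-1 probes were called, where 0.00324% of all probes were called (1 probe). At an unadjusted p under 0.05 there were 4 of 11 (both Fosl2 probes, Fos and Jun), beside 8.70% of all probes. The Fosl2 probes are both of the targeted gene and moved in opposite directions, and Fos was just under the threshold (limma unadjusted p = 0.0485). The groups did not overlap for 7 of 11, 63.6%, beside 35.2% of all probes. The median absolute difference was 0.40 over AP-1 probes and 0.16 over all probes. Early response genes outside the family, which rise when cells are handled, are given beside this: 7 of 14 tested had an unadjusted p under 0.05, none was called, and their median was 0.32. Of these Klf4, a transcription factor, differed by 0.66 (adjusted p = 0.264) and Hspa1a, a heat shock protein, by −1.23 (adjusted p = 0.0963). Neutrophil markers also moved with the label: the 5 of 6 on the array summed to 27.1 to 31.0 in arrays labelled Fra-2 knockout and 13.1 to 20.0 in Fra-2 control arrays. The part of either in the AP-1 differences was not tested.

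**Figure D2:**
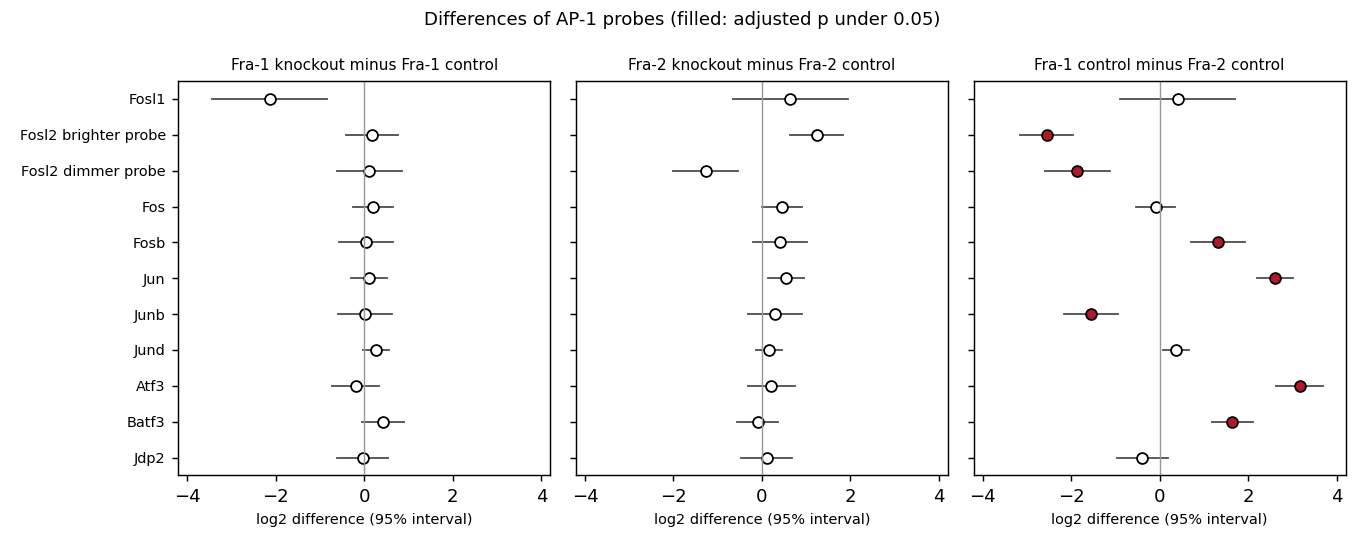
Log2 difference of each AP-1 probe in 3 comparisons, with its 95% interval (lines); filled points had a limma adjusted p under 0.05. No point is filled in either knockout comparison, and 7 of 11 are filled between the control groups of the lines.

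Whether the deletions differed in their effect was tested directly, as the Fra-1 effect minus the Fra-2 effect. Of the 11 probes 0 were called and 3 had an unadjusted p under 0.05, beside 0.00324% called and 9.32% under 0.05 among all probes. The fitted difference for Fosl1 was −2.77 (SE 0.75, adjusted p = 0.373 by limma). It rests on Fra-1 knockout arrays where the probe was not well above background, and was −1.28 with normexp background correction and −1.87 with a common floor, so its size is not settled. The brighter Fosl2 probe differed by −1.06 (adjusted p = 0.436), and the dimmer one by 1.39 (adjusted p = 0.421). With all arrays raised to a common floor, the difference of the dimmer probe became 0.96 with a limma adjusted p of 0.0423. There too only the Fra-2 control arrays stood above the floor, so that p-value does not measure the spread of the other groups. The 8 other probes had adjusted p-values of 0.603 to 0.909. No AP-1 gene was thus shown to differ between the deletions in its response.

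The largest differences in the family lay between the lines. Fra-1 control and Fra-2 control macrophages differ in the floxed gene and the labelled thioglycollate elicitation, and these cannot be told apart. Any further difference in preparation could not be told apart from them either. This comparison shares its control arrays with both knockout comparisons. In it 7 of 11 AP-1 probes were called, 63.6%, beside 34.8% of all probes. Of these 4 were higher in Fra-1 controls (Atf3, Jun, Batf3 and Fosb), beside 17.1% of all probes, and 3 were lower (both Fosl2 probes and Junb), beside 17.6%. The dimmer Fosl2 probe was kept by the filter only through the Fra-2 control arrays, where it was brighter. The arrays of the control groups did not overlap for 9 of 11 probes, 81.8%, beside 71.3% of all probes. At an unadjusted p under 0.05 there were 8 of 11, beside 45.9% of all probes. The median absolute difference was 1.55 over AP-1 probes and 0.46 over all probes. Because the members were chosen with earlier results of these data known, these shares do not test the family.

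**Figure D3:**
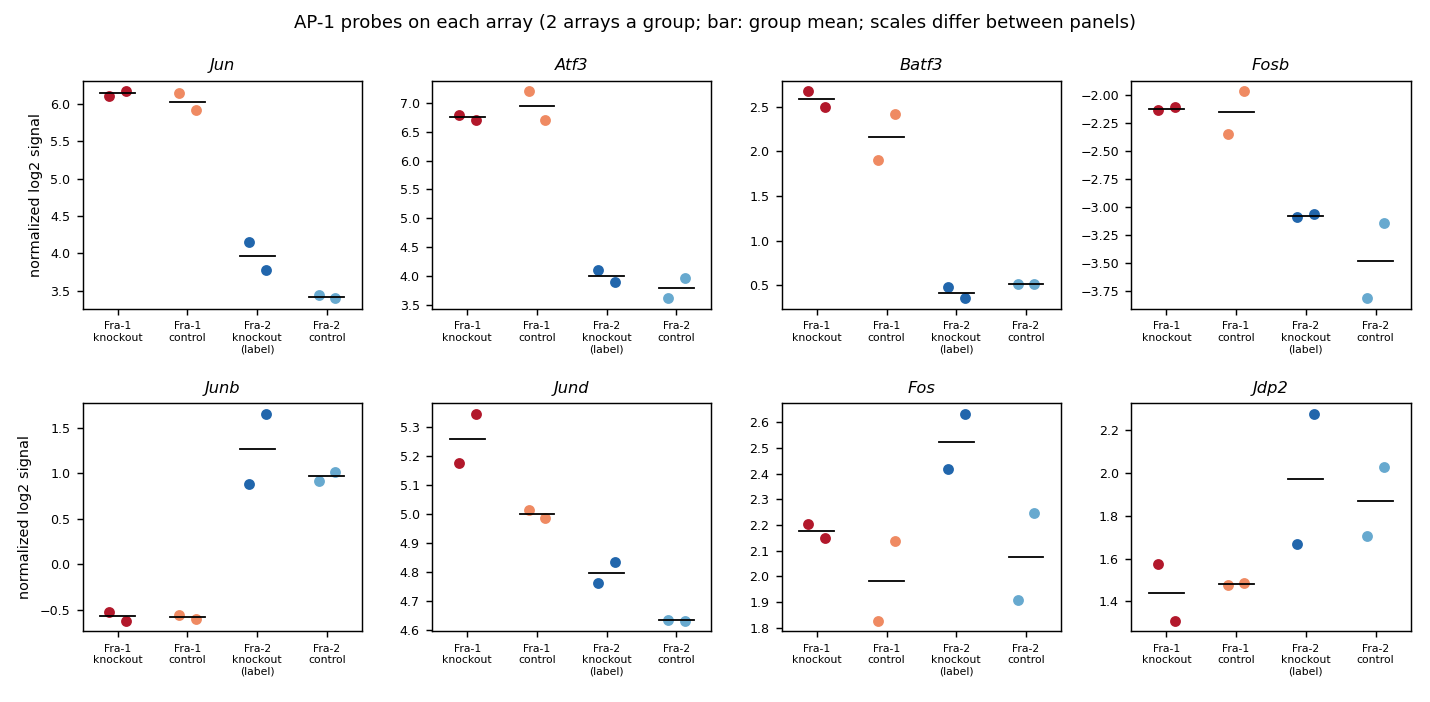
Normalized log2 signal of the 8 AP-1 genes that were not targeted, on each array (points), with the group mean (bar); scales differ between panels. Jun, Atf3, Batf3, Fosb and Jund were brighter on all 4 Fra-1 line arrays than on all 4 Fra-2 line arrays, Junb and Jdp2 were dimmer, and Fos overlapped. Jund and Jdp2 were not called between the control groups.

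Atf3 differed most. It read 7.20 and 6.70 in Fra-1 control arrays, against 3.61 and 3.97 in Fra-2 control arrays, and the knockout arrays of each line lay near their own controls. The difference was 3.16 (SE 0.22, 95% interval 2.63 to 3.70), 8.96-fold, with a limma adjusted p of 0.000384. It was 3.34 within slide 1 and 3.17 with a slide term.

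Jun read 6.14 and 5.92 in Fra-1 control arrays, against 3.45 and 3.40 in Fra-2 control arrays. The gap between the lines was far wider than the spread within either, and the difference of 2.61 (SE 0.17, 2.20 to 3.01) was 6.10-fold with an adjusted p of 0.000315 by limma. Batf3 read 1.90 and 2.42 in Fra-1 control arrays and 0.51 on both Fra-2 control arrays, a difference of 1.65 (SE 0.19, limma adjusted p = 0.00192) and 3.13-fold. Fosb read −2.34 and −1.96 in Fra-1 control arrays and −3.81 and −3.14 in Fra-2 control arrays. It was 2.50-fold higher in Fra-1 controls (1.32, SE 0.25, limma adjusted p = 0.00965), though without Fra-1 control array 2 the difference was 1.14 with an adjusted p of 0.0549, and with normexp background correction it was 0.54.

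Fosl2 ran the other way by both of its probes. The brighter probe read 2.86 and 3.13 in Fra-1 control arrays, against 5.51 and 5.57 in Fra-2 control arrays, and all 4 arrays of the Fra-1 line were dimmer than all 4 of the Fra-2 line. It was 5.86-fold lower in Fra-1 controls (−2.55, SE 0.24, 95% interval −3.15 to −1.96, limma adjusted p = 0.000976). The dimmer probe read −4.01 and −4.95 in Fra-1 control arrays and −2.59 and −2.64 in Fra-2 control arrays, with 1 of 2 Fra-1 control arrays well above background (−1.86, SE 0.30, limma adjusted p = 0.00578). It passed the filter only through the Fra-2 control arrays, where it was brighter, so its call is not separate support for the brighter probe. With normexp background correction the dimmer probe gave −0.65, still called. A common floor gave −0.96, also called, but it set both Fra-1 control arrays to 1 value, so this call does not measure their spread. The Fosl2 window printed above holds none of the searched motifs.

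Junb read −0.56 and −0.60 in Fra-1 control arrays, against 0.92 and 1.02 in Fra-2 control arrays. It was 2.92-fold lower in Fra-1 controls (−1.55, SE 0.25, limma adjusted p = 0.00579), opposite to Jun, so that the Jun genes did not move together between the lines. Jund read 5.01 and 4.99 in Fra-1 control and 4.64 and 4.63 in Fra-2 control arrays, and the difference of 0.37 had a limma adjusted p of 0.0606. It was called in 5 of the alternative settings. Fos read 1.83 and 2.14 in Fra-1 control arrays and 1.91 and 2.25 in Fra-2 control arrays, which overlapped (−0.09, −0.54 to 0.35). Jdp2 differed by −0.39 (−0.97 to 0.19) and Fosl1 by 0.41 (−0.89 to 1.71), neither called.

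The cells of the lines also differed in their markers. The 8 macrophage markers averaged 5.35 to 5.63 in Fra-1 control and 6.53 to 6.58 in Fra-2 control arrays (normalized log2). They summed to 944 to 1194 in Fra-1 control and 1292 to 1454 in Fra-2 control arrays. The 5 of 6 T cell markers on the array averaged −2.35 to −1.93 in Fra-1 control and −0.57 to −0.32 in Fra-2 control arrays. Their sums were close, at 5.66 to 6.21 in Fra-1 control and 6.53 in both Fra-2 control arrays. The large resident peritoneal macrophage markers, 7 of 8 on the array and including Gata6 and Timd4, averaged −0.23 to −0.13 in Fra-1 control and 3.52 to 4.21 in Fra-2 control arrays on the normalized log2 scale, in which each marker counts equally. Their summed signal, in which brighter markers weigh more, was 143 to 179 in Fra-1 control and 105 to 161 in Fra-2 control arrays and overlapped, so this list separated the lines by its mean log2 and not by its sum. Timd4 was not well above background on any array of the Fra-1 line. The 6 mast cell markers summed to 1.15 to 1.70 in Fra-1 control and 37.5 to 114 in Fra-2 control arrays, and the 6 B cell markers to 1.42 to 3.33 in Fra-1 control and 38.4 to 80.9 in Fra-2 control arrays. Fibroblast markers summed to 109 to 157 in Fra-1 control and 1.47 to 3.41 in Fra-2 control arrays. The 7 mesothelial markers summed to 10.3 to 15.1 in Fra-1 control and 0.738 to 0.804 in Fra-2 control arrays. The 4 eosinophil markers summed to 4.53 to 5.19 in Fra-1 control and 0.589 to 1.53 in Fra-2 control arrays. Only 2 of these 4 were well above background on each control array. The mean log2 of the eosinophil list overlapped, at −3.75 to −3.17 in Fra-1 control and −4.44 to −3.51 in Fra-2 control arrays. The part of these in the AP-1 differences was not tested.

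The wider pathway was read from lists of genes, each by its brightest probe. Other basic leucine zipper partners had 28 genes, of which 26 were tested, and 0 were called in either knockout comparison. The smallest p-values were those of Ddit3, a stress factor, at 0.50 (adjusted p = 0.559) in the Fra-1 comparison and Nfe2, a partner of small Maf proteins, at 1.46 (adjusted p = 0.333) in the Fra-2 comparison. Nfe2 read 2.94 and 2.61 in arrays labelled Fra-2 knockout and 1.86 and 0.76 in Fra-2 control arrays. Between the controls of the lines 4 partners were higher and 9 lower in Fra-1 controls, beside 17.1% of all probes higher and 17.6% lower. Nfil3, a repressor of the family, read 3.11 and 3.07 in Fra-1 control and 6.40 and 6.56 in Fra-2 control arrays (−3.39), and Cebpd, a C/EBP factor of inflammation, differed by −2.69. Batf2, related to Batf3, differed by −1.35, opposite to Batf3, and Atf5 by 1.18.

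Upstream of AP-1, 34 kinases, phosphatases and factors were tested, and 0 were called in either knockout comparison. Dusp1, a phosphatase that switches off stress-activated MAP kinases, came first by p among them in arrays labelled Fra-2 knockout, at 0.86 (adjusted p = 0.363). Mapk3, the MAP kinase known as Erk1, differed by 0.36 (adjusted p = 0.664) in the Fra-1 comparison. Between the controls 7 of the 34 were higher and 9 lower in Fra-1 controls, where 17.1% of all probes were higher and 17.6% lower. Mapk14, a stress-activated MAP kinase, differed by −1.26 and Rps6ka1, a kinase downstream of Erk, by −2.08. Dusp4, a phosphatase of MAP kinases, differed by 2.51 and Fbxw7, the ubiquitin ligase subunit that marks Jun for destruction, by 1.20.

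Genes with described AP-1 sites were 28, of which 25 were tested. In Fra-1 knockout macrophages 0 were called, and 3 had an unadjusted p under 0.05 by limma, beside 8.61% of all probes. The smallest p-values were those of Plau, the urokinase that activates plasminogen, and Ccl2, a monocyte chemokine. Plau read 2.62 and 2.25 in Fra-1 knockout and 0.99 and 1.73 in Fra-1 control arrays (1.08, limma adjusted p = 0.391). Ccl2 read 5.61 and 5.49 in Fra-1 knockout and 4.37 and 5.20 in Fra-1 control arrays (0.76, limma adjusted p = 0.533). For both, the knockout arrays lay above the controls.

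In arrays labelled Fra-2 knockout 0 of the 25 were called, and their median was −0.56, beside −0.02 over all probes. Of the 25, 9 differences were positive, and 6 had an unadjusted p under 0.05 by limma, beside 8.70% of all probes. In the difference of the effects 0 were called, and 10 of 25 had an unadjusted p under 0.05, beside 9.32% of all probes. Their median there was 0.74, with 16 of 25 positive, beside a median of 0.05 over all probes. Because the list was chosen with earlier results of these data known, these shares do not test it. Acp5, the tartrate-resistant phosphatase of osteoclasts and macrophages, read 4.91 and 5.34 in arrays labelled Fra-2 knockout and 6.28 and 6.55 in Fra-2 control arrays (−1.29, limma adjusted p = 0.137). Mmp12, macrophage elastase, differed by −1.07 (adjusted p = 0.366). Between the controls of the lines 9 of the 25 were higher and 7 lower in Fra-1 controls, against 17.1% and 17.6% of all probes. Spp1, which encodes osteopontin, read 6.60 and 6.73 in Fra-1 control and −0.02 and −0.55 in Fra-2 control arrays (6.95). The inflammatory cytokine gene Il1b read −2.59 and −2.76 in Fra-1 control and 6.63 and 7.63 in Fra-2 control arrays (−9.80), and the matrix protein gene Thbs1 differed by −5.09.

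Early response genes outside the family had 5 higher and 7 lower in Fra-1 controls among 14 tested, with 17.1% of all probes higher and 17.6% lower. Ier3 differed by −4.26 and Nr4a1, a nuclear receptor of the immediate early class, by −3.01, while Gadd45b, a growth arrest and stress gene, differed by 3.11. Fos, itself an early response gene, did not separate the lines.

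Patterns over the 8 arrays, after each line's mean was subtracted, are given as descriptions. The arrays share their line means and slides, and neighbours were picked from all named probes. The probes most like Fosl1 were those of Prss21 (Pearson r = 0.993), Ddr2 (0.975) and Ankrd1 (0.968), of which Prss21 and Ddr2 were well above background on only 2 arrays each. Most like the brighter Fosl2 probe were Proser1 (0.979), St3gal1 (0.974) and Gpat3 (0.969), and most like Fos were Fut11 (0.987), Ttll4 (0.973) and Stk38l (0.965). Among the 55 pairs of AP-1 probes the correlation ran from −0.82, between the probes of Fosl2, to 0.88, between Fos and Fosb, with a median of 0.12.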

How the data were processed

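RNA (50 ng in total, labelled with Cy3) was hybridised on Agilent one-colour arrays. Per the file headers, the authors' scanner files were made with Feature Extraction 11.5.1.1 on a design annotated to mm9, and hold a background-corrected processed intensity and quality flags (other values) for each spot. The deposited log2 value table of the same arrays has a correlation of 1 with the scanner values, with probes centred across arrays, and was used as an alternative. Outlier spots were left out, spots of 1 probe averaged, log2 taken and each array's 75th percentile subtracted. Probes well above background on both arrays of at least 1 group were kept; 340 probes without a value on some array were dropped. Limma 3.58.1 (R 4.3.3) was fitted to the means of the 4 groups over all 8 arrays (4 residual degrees of freedom), with Benjamini-Hochberg adjustment within each comparison, and was tested on simulated data. A bound is the mean of the bright group over the mean of the detection floor, or of the probe's own signal where higher, in the dim group. The number of arrays limits the precision. Of each list, at most 4 called genes, or 2 uncalled ones, with the smallest p were named. The members and lists were chosen with earlier results of these data known. Replicate numbers follow the order of the samples and pair nothing. Slide 1 held Fra-1 knockout 1, both Fra-1 controls, Fra-2 knockout 1 and Fra-2 control 1; slide 2 held the rest. Gene names came from the array's accessions through RefSeq (GRCm38.p6), which was used for names and printed promoters only. Protein sequences were not used here.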

Additional observations from a re-analysis of the deposited data

How the results depend on the processing

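No paired analysis was possible because the labels give the groups no shared replicate numbers. Calls of AP-1 probes between the lines numbered 6 to 7 of 11 when each array was left out, and Fosb was the probe lost (1.14, adjusted p = 0.0549, without Fra-1 control 2). Jund, not called in the report, was called there with normexp correction (adjusted p = 0.0499), with probes above background on all 8 arrays (0.0421), with a common floor (0.0147), with a trended prior (0.0246) and with 4 arrays of each line (0.00831). With a common floor 1 AP-1 probe, the dimmer Fosl2 probe, was called in the Fra-2 comparison and 1 in the difference of the effects, instead of 0. Only its Fra-2 control arrays stood above that floor, so these calls do not measure the spread of the other groups. Signs turned with a slide term for Fosb (−0.086) and Junb (−0.12) in the Fra-1 comparison, and for Fosl1 between the lines with 4 arrays of each (−0.97, adjusted p = 0.0715), where the Fra-1 knockouts enter. Leaving out arrays turned further signs. In the Fra-1 comparison the ranges were −0.35 to 0.58 for the dimmer Fosl2 probe, −0.15 to 0.22 for Fosb, −2e-04 to 0.23 for Jun, −0.041 to 0.055 for Junb, −0.45 to 0.055 for Atf3 and −0.17 to 0.091 for Jdp2. In the Fra-2 comparison they were −0.089 to 1.36 for Fosl1, −0.084 to 0.68 for Junb and −0.20 to 0.41 for Jdp2. In the difference of the effects they were −0.68 to 0.091 for Junb and −0.45 to 0.16 for Jdp2, and between the lines −0.26 to 0.077 for Fos. Counts over all probes moved more. In the Fra-1 comparison 5 became 30 (quantile), 26 (common floor), 3 (1 probe per gene), 1 (probes above background on all 8 arrays) or 0 (normexp, no filter, slide term, trended prior, only the groups compared), and 0 to 27 without an array. In the Fra-2 comparison 1 became 77 (trended prior), 32 (normexp), 26 (quantile), 18 (common floor), 10 (all 8 arrays) or 0 (no filter, slide term, only the groups compared), and 0 to 81 without an array. In the difference of the effects 1 became 15 (quantile), 13 (common floor) or 0 (normexp, no filter, slide term, trended prior), and 0 to 38 without an array. Between the lines 10720 became 16297 with 4 arrays of each, and 6996 (without Fra-1 control 2) to 11107 without an array. The cause of these moves was not tested. Signal over background limits Fosl1, the dimmer Fosl2 probe and Fosb.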
